A study of Mus musculus with 6 samples.

Results

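Helper T cells take on separate programmes under the direction of a small set of transcription factors, and 9 of these regulators are described here: Tbx21, Gata3, Rora, Bcl6, Maf, Prdm1, Batf, Runx1 and Runx3. They were chosen by name, and every probe set annotated with exactly 1 gene symbol from that set was taken, which gave 9 of 12393 genes and 16 of the 22626 probe sets tested. Runx1 had 5 probe sets, Rora 3, Bcl6 2 and the other 6 genes 1 each. No probe set named any of them among several symbols.

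Total RNA of CD4+CD25+ T cells from mice was hybridised to 1 Affymetrix Mouse430a array per sample. CD4 and CD25 together are used to sort regulatory T cells. The 3 Hdac3 deleted samples came from C57BL6 mice labelled HDAC3-fl/fl_FOXP3cre, in which a Cre recombinase named for Foxp3 acts on a floxed Hdac3 gene, so deletion is meant only for cells that express Foxp3. The 3 wild type samples came from C57BL6 mice, and nothing in the labels says that they carried the Cre. The source name of the Hdac3 deleted samples reads HDAC11, against a title and genotype that read HDAC3. Neither ages nor the number of animals behind a sample are stated. The p-values therefore cover the spread among these arrays alone, and part of it may be technical.

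Tbx21 encodes T-bet, the factor of Th1 cells, and Gata3 encodes the factor of Th2 cells. In helper T cells each is known to oppose the programme of the other. Bcl6, a repressor that works through corepressors and deacetylases including Hdac3, directs follicular helper T (Tfh) cells, and Prdm1 encodes Blimp-1, a repressor of effector T cells and plasma cells that opposes it. Rora encodes a nuclear receptor that acts in Th17 cells, Batf a partner of AP-1 and IRF4 proteins, Maf a leucine zipper activator of cytokine genes, and Runx1 and Runx3 are DNA-binding subunits that pair with Cbfb. Regulatory T cells use several of them as well, and myeloid cells are known to express Runx1, Maf, Prdm1 and Bcl6.

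RefSeq promoter windows (GRCm38.p6, 250 bases before to 50 after a start) were present for 8 of the 9 genes, 11 windows in all. The Runx1 and Runx3 windows that share the longest run are shown, because they hold the motif of the RUNX family itself. Capitals mark the RUNX motif TGTGGTT, here on the opposite strand as AACCACA.
Runx1: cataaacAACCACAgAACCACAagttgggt
Runx3: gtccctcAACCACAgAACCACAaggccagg
The Runx1 stretch lies at chr16:92826025-92826054 on the minus strand, from base 21 after the start, and the Runx3 stretch at chr4:135120503-135120532 on the plus strand. They share an unbroken run of 18 bases that 4 of all 32851 windows held, those of Runx1, Runx2, Runx3 and Gm16225. The RUNX motif on either strand occurred in 5.27% of all windows, and at least 2 copies occurred in 0.204%. A match is a description of letters and not of a site in use.

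The Batf window held a RUNX motif starting 57 bases before the start, on the opposite strand, and the Prdm1 window held the AP-1 motif TGANTCA, the kind of site at which Batf acts with its partners, 48 bases before the start. They are shown because they link members of the set by sequence, with the motif in capitals.
Batf: gaattaccagaAACCACAagagagggcctg
Prdm1: gctggtaggagTGAATCAgaccgtcagtat
The Batf stretch lies at chr12:85686652-85686681 on the plus strand and the Prdm1 stretch at chr10:44458778-44458807 on the minus strand. TGANTCA occurred in 7.81% of all windows and in 1 of the 11 windows of these genes. The GATA letters AGATAA (11.2% of all windows) occurred in the Batf window alone among them. Of 5 further searches on both strands, the T-box letters AGGTGTGA (1.28% of all windows), the ROR letters TAGGTCA (2.61%), the BCL6 letters TTCCTAGAA (0.411%), the Blimp-1 letters AGTGAAAGT (0.274%) and the palindromic MAF element (0.00609%) had no match in the 11 windows. The MAF element contains the AP-1 letters. No match in the 11 windows overlapped another.

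Across the arrays, sample medians were 6.43 to 6.47 (log2) in Hdac3 deleted and 6.28 to 6.29 in wild type samples, and correlation across probe sets was 0.997 to 0.998 within Hdac3 deleted samples, 0.996 to 0.997 within wild type and 0.921 to 0.923 between groups. Hdac3 measured 8.46, 8.51 and 8.50 in Hdac3 deleted and 9.07, 9.04 and 9.01 in wild type samples (difference -0.55, limma adjusted p = 0.000125). The position of this probe set relative to the floxed exons was not examined. A difference as low as that of Hdac3 or lower was found in 14.9% of all probe sets. The fall of Hdac3 was also smaller than that of the CD3 genes given below (-1.47). Whether it reflects the deletion was not tested. Foxp3, at 3.68 ± 0.153 in Hdac3 deleted and 3.77 ± 0.291 in wild type samples (SD, n = 3 each), lay within the range of 2.37 to 5.16 spanned by 27 bacterial control probe sets, which serves as the background range here. All 10 T cell markers examined fell, with the mean of the 4 CD3 genes 10.73 to 10.77 in Hdac3 deleted and 12.17 to 12.26 in wild type samples, a difference of -1.47. Macrophage and monocyte markers rose in 16 of 17 measured genes, and their mean level was 11.78 to 11.82 in Hdac3 deleted and 5.28 to 5.35 in wild type samples, with 1 and 6 of the 17 inside the background range. All 14 neutrophil markers rose as well, at a mean level of 10.41 to 10.42 in Hdac3 deleted and 4.64 to 4.96 in wild type samples, where 9 of the 14 were inside that range. Of 8 measured B cell markers 2 rose and 1 fell, at 4.62 to 4.75 in Hdac3 deleted and 4.61 to 4.8 in wild type samples, with 6 of the 8 inside the range in either group. Beside these marker counts, 22.0% of all 12393 genes, read from 1 probe set each, rose and 38.0% fell. In RNA pooled from many cells, fewer cells of a type and less RNA per cell cannot be told apart.

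Tbx21 and Prdm1 rose and Gata3 and Bcl6 fell, each by about the size of the 2-fold threshold used by the study, while Rora rose and Batf fell by less, and relative to the CD3 genes all of them were higher. In limma, 11 of the 16 probe sets passed an adjusted p of 0.05, 5 higher and 6 lower in Hdac3 deleted samples. Over all probe sets 57.6% passed, 20.1% higher and 37.4% lower, so the 68.8% of member probe sets that passed is not far from the share over the whole array. Past both the adjusted p and a 2-fold difference was 1 of 16, Tbx21, where 12.2% of all probe sets passed, 7.91% higher and 4.33% lower. The number lower past both was 0, and it was also 0 at an unadjusted p under 0.05 with 2-fold and with the methods' t-test, while 6 were lower at that unadjusted p with no fold threshold, where 41.6% of all probe sets were. The split of calls over all probe sets depended on the scale, with 16% higher and 57.6% lower under median centring, 27.6% and 21.9% under cyclic loess and 97.8% and 0.831% relative to the CD3 genes. The median difference of the 16 was -0.02, beside -0.17 over all probe sets, and the median size regardless of sign was 0.46, beside 0.31. Groups did not overlap in 11 of the 16, against 64.6% of all probe sets.

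**Figure D1:**
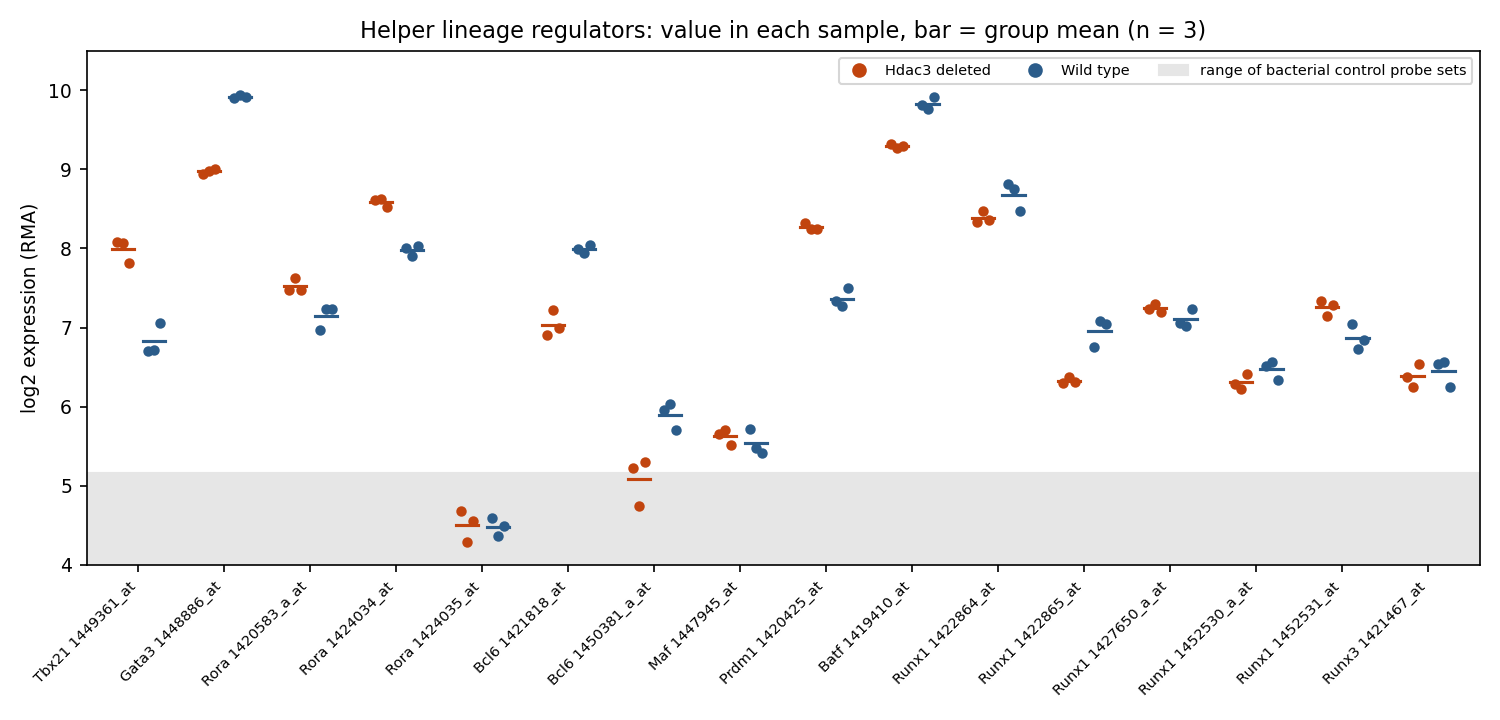
Log2 expression of the 16 probe sets of the 9 regulators (vertical axis) in each of 3 Hdac3 deleted samples (orange, left of each pair) and 3 wild type samples (blue, right); bars are group means and the grey band is the background range up to 5.16. Tbx21 and Prdm1 lie higher in all Hdac3 deleted samples, Gata3 and the brighter Bcl6 probe set lower on this deposited scale (but not relative to the CD3 genes), and 1 Rora probe set lies within the grey band in both groups.

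Tbx21, the gene of T-bet, showed the largest rise of the 16. Probe set 1449361_at measured 8.08, 8.07 and 7.82 in the Hdac3 deleted samples, against 6.71, 6.72 and 7.06 in the wild type samples. The lowest Hdac3 deleted value, 7.82, lay above the highest wild type value, 7.06. The difference was 1.16 (SE 0.120, 95% interval 0.88 to 1.44), or 2.24-fold (limma adjusted p = 0.000143), and 6.93% of all probe sets had one as high or higher. Median centring lowered the rise to 1.0 and cyclic loess enlarged it to 1.33, so Tbx21 stayed higher under either. The value of 2.63 relative to the CD3 genes is no test of direction, since that scale shifts all probe sets upward alike. On it, 97.8% of all probe sets were called higher.

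Gata3, the factor of Th2 cells, also needed for T cell development, moved the other way. Probe set 1448886_at measured 8.94, 8.98 and 9.01 in the Hdac3 deleted samples, against 9.90, 9.94 and 9.92 in the wild type samples. The groups lay far apart beside a spread of 0.0348 (SD) in Hdac3 deleted and 0.0222 in wild type samples. Gata3 fell by 0.94 on the log2 scale (SE 0.056, 95% interval -1.08 to -0.81, adjusted p = 8.46e-06), which is 1.92-fold, but relative to the CD3 genes it was higher by 0.52. Thus Gata3 fell by less than the CD3 genes, whose difference was -1.47. On that CD3 scale 12101 of 12393 genes were called higher, and the median over all genes was 1.30, above the value of Gata3.

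A shift common to all probe sets of an array cancels in the gap between Tbx21 and Gata3 on that array. The gap, Tbx21 minus Gata3, was -0.86, -0.91 and -1.19 log2 in the Hdac3 deleted samples, against -3.18, -3.22 and -2.86 in the wild type samples. It thus differed by 2.10 log2, or 4.29-fold, in favour of Tbx21 in all Hdac3 deleted samples. An exact two-sided permutation test over the 6 samples gave p = 0.1 (0.1 adjusted over 4 gaps examined), the smallest p that 3 against 3 samples allow. The sign of a gap compares probe sets of unlike sensitivity and carries no information, and the pair was chosen with its values known.

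Bcl6, the Tfh repressor, was lower in both of its probe sets. The brighter, 1421818_at, measured 6.90, 7.22 and 6.99 in the Hdac3 deleted samples, against 7.99, 7.94 and 8.04 in the wild type samples. Every Hdac3 deleted sample lay below every wild type sample, by at least the distance between 7.22 and 7.94. Bcl6 fell by 0.95 on the log2 scale (SE 0.091, 95% interval -1.17 to -0.74, adjusted p = 9.29e-05), 1.94-fold, and was higher by 0.51 relative to the CD3 genes. The dimmer, 1450381_a_at, measured 5.23, 4.74 and 5.30 in Hdac3 deleted samples, against 5.96, 6.04 and 5.70 in wild type samples. It fell by 0.81 (adjusted p = 0.00407), with 2 of 3 Hdac3 deleted and 3 of 3 wild type arrays above the background range, and was higher by 0.66 relative to the CD3 genes. The size of its fall is uncertain, since its Hdac3 deleted mean of 5.09 lies inside that range, and it was -0.64 without Hdac3 deleted replicate 2, where the brighter set was at -1.04.

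Prdm1, the gene of Blimp-1, rose. Probe set 1420425_at measured 8.32, 8.25 and 8.25 in the Hdac3 deleted samples, against 7.33, 7.27 and 7.50 in the wild type samples. The groups did not overlap. The difference was 0.91 (SE 0.076, 95% interval 0.73 to 1.09, adjusted p = 4.73e-05), 1.88-fold, and it was 0.75 with median centring, 1.08 with cyclic loess and 2.37 relative to the CD3 genes. Blimp-1 is also a factor of plasma cells and macrophages, and in the same samples 4 of 6 measured plasma cell markers rose and 1 fell, with a mean level of 8.14 to 8.16 in Hdac3 deleted and 6.93 to 6.99 in wild type samples. Among all genes, read from 1 probe set each, 22.0% rose and 38.0% fell. In the plasma cell list Igha rose by 4.46 and Jchain by 2.50, and the marker that fell was Irf4, by 1.31. Tnfrsf17, a plasma cell receptor, was at background in both groups. The part of these cells, or of the macrophages above, in the Prdm1 rise was not tested.

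The gap between Prdm1 and Bcl6, a pair known to oppose each other, moved as well. Prdm1 minus Bcl6 was 1.41, 1.03 and 1.26 log2 in the Hdac3 deleted samples, against -0.66, -0.68 and -0.54 in the wild type samples. It differed by 1.86 log2, 3.63-fold, in favour of Prdm1, with no overlap between groups (exact two-sided permutation p = 0.1, 0.1 adjusted over the 4 gaps, the smallest possible).

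**Figure D2:**
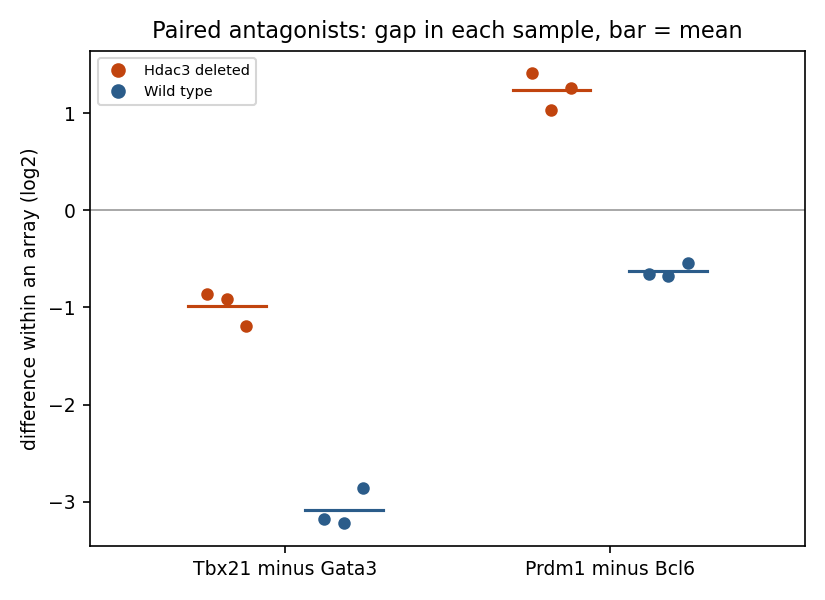
Difference within an array in log2 (vertical axis) between Tbx21 and Gata3 and between Prdm1 and Bcl6 in each of 3 Hdac3 deleted samples (orange, left) and 3 wild type samples (blue, right); bars are means. Both gaps lie higher in every Hdac3 deleted sample, by 2.10 and 1.86 on average, and the shift rather than the sign is what can be read.

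Rora, the nuclear receptor of Th17 cells that type 2 innate lymphoid cells and tissue regulatory T cells also use, rose in 2 of its 3 probe sets. The brightest, 1424034_at, measured 8.61, 8.62 and 8.53 in the Hdac3 deleted samples, against 8.0, 7.91 and 8.03 in the wild type samples. Its groups did not overlap, and the difference was 0.60 (SE 0.063, 95% interval 0.46 to 0.75, adjusted p = 0.000144), 1.52-fold. Probe set 1420583_a_at measured 7.48, 7.63 and 7.48 in Hdac3 deleted samples, against 6.97, 7.24 and 7.23 in wild type samples. It was higher by 0.38 (adjusted p = 0.00986), a smaller rise that did not pass with median centring (0.22, adjusted p = 0.0541). The dimmest, 1424035_at, lay inside the background range on all 6 arrays, at 4.51 ± 0.199 in Hdac3 deleted and 4.48 ± 0.109 in wild type samples (SD, n = 3 each), and gives no readable direction. A gap to this set was among the 4 gaps examined and is not read, since the set lies at background. Of 8 measured markers of type 2 innate lymphoid and mast cells, 3 rose, where 22.0% of all genes did. Inside the background range lay 4 of the 8 in Hdac3 deleted samples and all 8 in wild type.

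Batf, the small AP-1 factor needed for Th17 and Tfh cells, fell. Probe set 1419410_at measured 9.32, 9.27 and 9.30 in the Hdac3 deleted samples, against 9.81, 9.76 and 9.92 in the wild type samples. The groups did not overlap. Batf fell by 0.54 on the log2 scale (SE 0.065, 95% interval -0.69 to -0.38, adjusted p = 0.000328), 1.45-fold, and was higher by 0.93 relative to the CD3 genes. Of all probe sets 15.6% had a difference at or under that of Batf.

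Runx1, a factor of blood stem cells and thymocytes that pairs with Foxp3 in regulatory T cells, gave no single direction over its 5 probe sets. Probe set 1422865_at measured 6.30, 6.37 and 6.31 in the Hdac3 deleted samples, against 6.75, 7.08 and 7.05 in the wild type samples, and fell by 0.64 (SE 0.098, adjusted p = 0.00114). Probe set 1452531_at went the other way, at 7.33, 7.15 and 7.29 in Hdac3 deleted samples, against 7.04, 6.73 and 6.84 in wild type samples, and rose by 0.38 (SE 0.097, adjusted p = 0.0121). Neither pair of groups overlapped. The rise did not pass with median centring (0.22, adjusted p = 0.0806) or with quantile normalization again (0.27, adjusted p = 0.0692), and relative to the CD3 genes the set that fell was higher by 0.83.

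The brightest Runx1 probe set, 1422864_at, measured 8.34, 8.47 and 8.36 in Hdac3 deleted samples, against 8.81, 8.75 and 8.47 in wild type samples. The groups met at 8.47 and were separate only in further decimals. The difference of -0.29 passed narrowly (adjusted p = 0.0403) but not when any sample other than wild type replicate 3 was left out (adjusted p = 0.0506 to 0.114), with cyclic loess (-0.10, 0.452) or with the methods' t-test (0.101). The remaining sets did not pass, with 1427650_a_at at 0.14 (adjusted p = 0.173) and 1452530_a_at at -0.17 (adjusted p = 0.125), although without wild type replicate 3 both passed, at 0.20 (0.0454) and -0.24 (0.0477). Cyclic loess also called 1427650_a_at (0.31, 0.00997), and median centring called 1452530_a_at (-0.33, 0.0131). Within an array, 1452531_at minus 1422865_at was 1.03, 0.78 and 0.98 log2 in Hdac3 deleted samples, against 0.30, -0.35 and -0.21 in wild type samples. The 2 probe sets thus changed unequally by 1.02 log2 (exact two-sided permutation p = 0.1, 0.1 adjusted over the 4 gaps, the smallest possible), a pair picked for this disagreement. RefSeq gives 2 promoter windows for Runx1, and whether the probe sets see different transcripts was not tested.

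Runx3, a factor of CD8 T cells that acts with T-bet in Th1 cells, and Maf, which is known to drive Il10 and Il4, showed no change that passed. Runx3 measured 6.38, 6.25 and 6.54 in Hdac3 deleted samples, against 6.54, 6.56 and 6.25 in wild type samples. The groups overlapped, and the difference was -0.06 with a 95% interval of -0.32 to 0.20 (adjusted p = 0.662). Maf measured 5.66, 5.71 and 5.52 in Hdac3 deleted samples, against 5.72, 5.48 and 5.41 in wild type samples, close above the background range. Its difference was 0.09 with an interval of -0.14 to 0.33 (adjusted p = 0.443). Both intervals leave out a 1.5-fold change in either direction on the deposited scale, whereas relative to the CD3 genes the differences were 1.41 and 1.56.

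**Figure D3:**
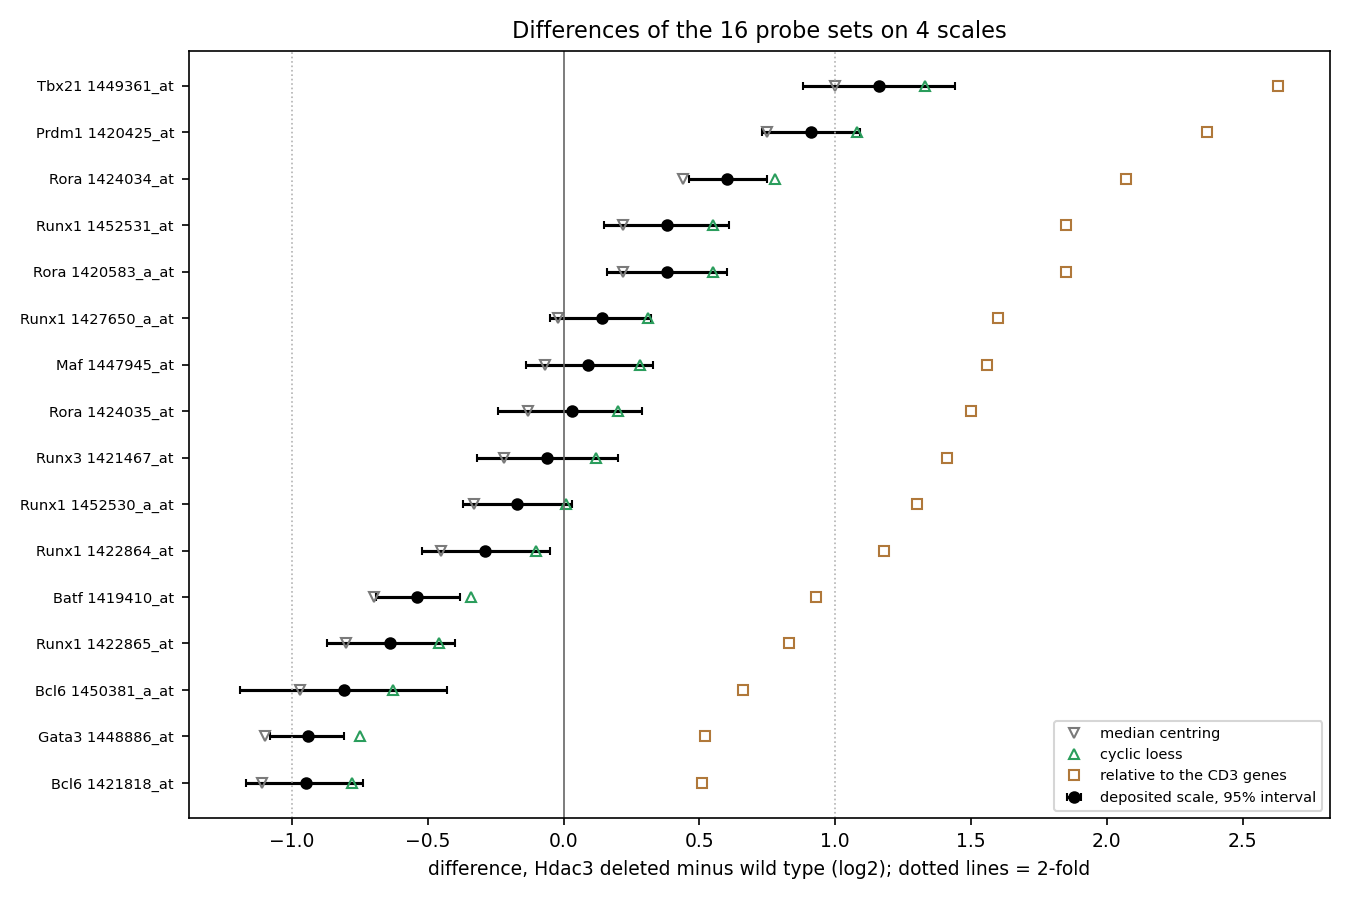
Difference of each of the 16 probe sets, Hdac3 deleted minus wild type in log2 (horizontal axis), with its 95% interval on the deposited scale (black) and its value with median centring, cyclic loess and relative to the CD3 genes (open symbols). Tbx21 is highest at 1.16 and Bcl6 lowest at -0.95 on the deposited scale; median centring and the CD3 scale move every probe set by 1 shared amount, and the CD3 scale places all 16 above 0.

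The side of the 2-fold threshold depended on the scale for Gata3, Bcl6 and Prdm1. With median centring Gata3 (-1.10) and the brighter Bcl6 set (-1.11) passed it, and with cyclic loess Prdm1 (1.08) did. Median centring moved the median over all probe sets to -0.33 and cyclic loess moved it to 0.00, from -0.17 as deposited. Across these 3 scales Tbx21, Prdm1 and the brightest Rora set were higher and Gata3, both Bcl6 sets, Batf and Runx1 1422865_at lower, all past adjusted p 0.05. Relative to the CD3 genes all of these were higher.

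Most Th1 genes rose beside Tbx21. Of 13 measured Th1 genes 10 rose and 2 fell, with a median of 0.77, where 60.0% of 12393 genes passed, 22.0% higher and 38.0% lower, with a median of -0.17. Ccl5, a chemokine of effector T cells, rose to 11.99 in Hdac3 deleted samples, against 8.74 in wild type. Lta, a cytokine of the TNF family, and Il12rb1, a chain of the IL-12 receptor, rose by 1.41 and 1.4. Il18r1, a chain of the IL-18 receptor, fell by 1.30, although its partner chain Il18rap was higher by 0.77. Ifng, the Th1 cytokine and a direct target of T-bet, was chosen here after its values were seen, like Il18rap, Hlx, Stat4 and Tnf. It measured 7.51, 7.68 and 7.74 in Hdac3 deleted samples, against 6.72, 6.72 and 7.10 in wild type samples, a difference of 0.80 (adjusted p = 0.00107). Hlx, a homeobox partner of T-bet, rose by 2.27, with 1 of 3 wild type arrays above the background range, whereas Stat4, which conveys IL-12 signals, fell by 0.44. Tnf differed by -0.13 (adjusted p = 0.0909). Relative to the CD3 genes 12 of the 13 were higher and none lower, where nearly all genes were.

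In the same samples 6 of 9 measured natural killer cell markers rose and none fell, where 22.0% of all genes rose and 38.0% fell. Their mean level was 5.96 to 6.01 in Hdac3 deleted and 4.98 to 5.04 in wild type samples. Gzma rose by 3.74, while Ncr1, Klra1 and Klra8 were at background in both groups. Prf1 was counted as a rise of 0.60, but its second probe set fell by 0.40 (limma adjusted p = 0.00182). Eomes, another of those that rose, also stands in the Th1 and CD8 lists. Of 6 CD8 T cell markers 2 rose, Gzmk by 2.67 and Eomes by 0.77, and 2 fell, Cd8b1 by 1.12 and Klrg1 by 1.05. The part of such cells, or of the macrophages above, in the rise of Tbx21 and of Th1 genes was not tested.

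Most Th2 genes did not pass beside the fall of Gata3. Of 12 measured genes 3 rose, 1 fell and 8 did not pass, where 22.0% of all genes rose and 38.0% fell. Inside the background range lay 4 of the 12 in Hdac3 deleted samples and 4 in wild type. Il10, a suppressive cytokine that several T cell types and macrophages make, rose by 1.29, to 8.52 in Hdac3 deleted samples, against 7.23 in wild type. Il4ra, the receptor of IL-4, and Nfil3, a leucine zipper factor, rose by 0.58 and 0.51, although a second Il4ra set was at 0.73 and another at -0.26 (adjusted p = 0.106). Ccr4, a homing receptor of Th2 and regulatory T cells, was at least 1.08-fold lower, its Hdac3 deleted level being inside the background range. Il4, chosen after its values were seen, measured 5.36, 5.09 and 5.56 in Hdac3 deleted samples, against 5.30, 5.23 and 5.45 in wild type samples, which is near background. With median centring the counts of this list were 3 higher and 5 lower, where 2179 of all 12393 genes were higher and 7158 lower. Relative to the CD3 genes all 12 were higher, where 12101 of the 12393 were.

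Th17 genes gave no common direction beside Rora and Batf. Of 8 measured, 1 rose, 3 fell and 4 did not pass, with a median of -0.01, where 22.0% of all genes rose and 38.0% fell. Ccl20, a chemokine of Th17 cells, was at least 1.63-fold lower, and Ahr, a ligand-sensing factor of these cells, fell by 0.74, a value of -0.19 in its dimmer second probe set (adjusted p = 0.225). Hif1a, the oxygen-sensing factor, rose by 0.65, and Il6ra, the IL-6 receptor chain, fell by 0.41. Il17a, chosen after its values were seen, was at 5.14 in Hdac3 deleted and 5.09 in wild type samples, at the edge of background. With cyclic loess the counts were 3 higher and 2 lower, where 3628 of all 12393 genes were higher and 2799 lower. Relative to the CD3 genes all 8 were higher, where 12101 of the 12393 were.

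Most Tfh genes fell beside Bcl6 on the deposited scale, but not relative to the CD3 genes. Of 11 measured, 7 fell, 6 of them past 2-fold as measured, 2 rose and 2 did not pass, with a median of -1.44, whereas relative to the CD3 genes 5 were higher, 5 lower and the median was 0.02. Id3, an inhibitor of E proteins, measured 7.42 in Hdac3 deleted and 10.58 in wild type samples and fell by 3.16. Sh2d1a, the adaptor SAP through which T cells help B cells, fell by 2.98, to 8.14 in Hdac3 deleted samples, against 11.12 in wild type. Pdcd1, the receptor PD-1, fell by 2.37, and Lef1, a factor that acts upstream of Bcl6, fell by 1.71. The 2 that rose, both chosen after their values were seen, were Icos (0.66), a costimulatory receptor, and Cxcr5 (0.35), the follicle homing receptor, which are themselves central Tfh genes. The T cell markers fell in the same samples by a median of 1.52, beyond which Id3, Sh2d1a, Pdcd1 and Lef1 lay.

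**Figure D4:**
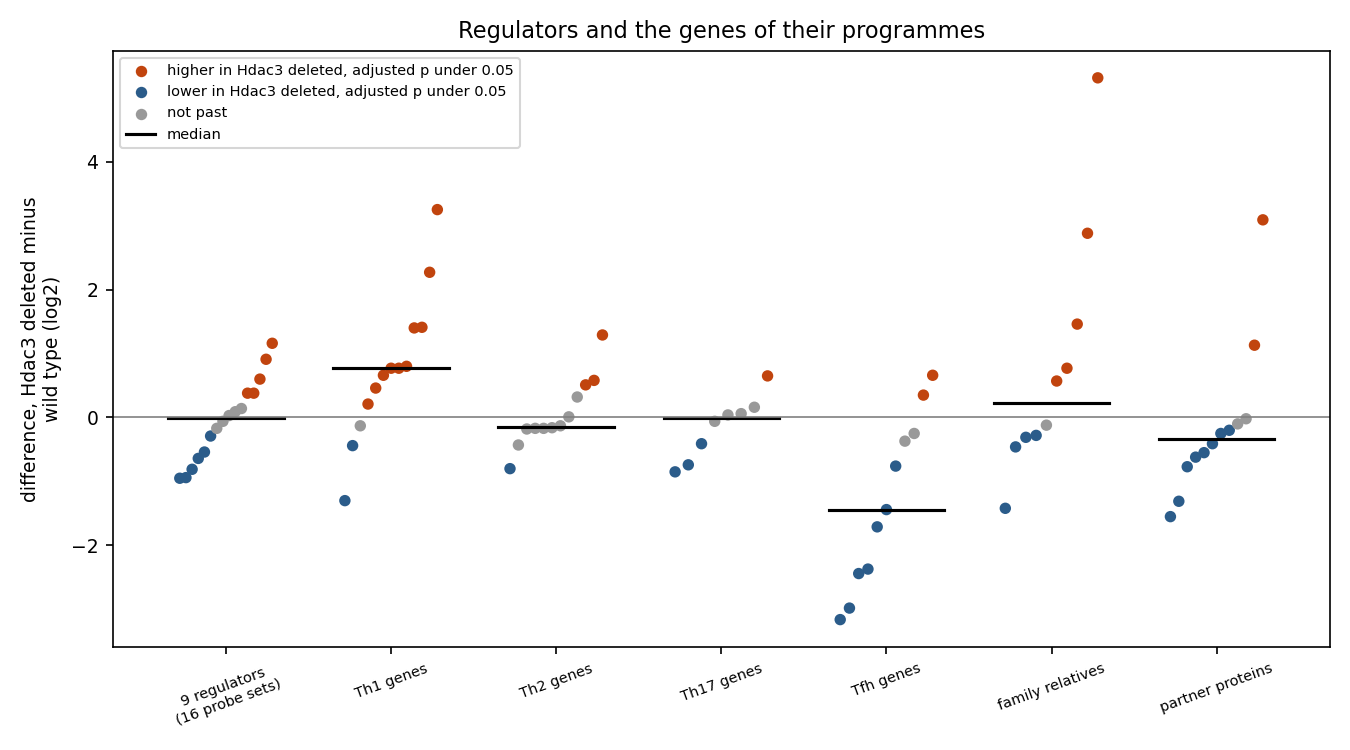
Difference, Hdac3 deleted minus wild type in log2 (vertical axis), of the 16 probe sets of the regulators and of each measured gene in 6 lists, 1 probe set per gene; colours give the limma call and bars the medians. Th1 genes have a median of 0.77 and Tfh genes of -1.44, beside -0.02 for the regulators. Relative to the CD3 genes the Tfh median was 0.02, where the median over all genes was 1.3.

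Some relatives of the regulators differed by more than the regulators themselves. Of 10 measured family members 5 rose and 4 fell, with a median of 0.23, where 22.0% of all genes rose and 38.0% fell. Batf3, the relative of Batf that dendritic cells need, rose to 10.35 in Hdac3 deleted samples, against 5.04 in wild type, and Batf2 to 8.33, against 5.45, with 1 and 2 of 3 wild type arrays above the background range, while Batf fell. Mafg, a small Maf protein, rose by 1.46, and Gata1, the erythroid relative of Gata3, fell by 1.42. The calls for Bcl6b and Rorb, both named after their values were seen, rest on values at background in both groups, so their direction cannot be read. Of 8 measured dendritic cell markers, a list that also holds Batf3, 4 rose and 1 fell, at a mean level of 6.92 to 6.98 in Hdac3 deleted and 5.67 to 5.76 in wild type samples. Itgax, which macrophages share, rose by 4.29, Ly75 by 0.70 and Flt3 by 0.38, and Ccr7 fell by 0.92. Xcr1, Zbtb46 and Cd209a were at background in both groups. With the macrophage markers higher by a median of 7.04, the source of the Batf3 and Batf2 signal was not tested. Relative to the CD3 genes 9 of the 10 family members were higher, where 12101 of 12393 genes were.

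Most partner proteins fell on the deposited scale, but not relative to the CD3 genes, a scale on which nearly all genes were higher. As deposited, 2 of the 12 measured were higher and 8 lower, where 22.0% of all genes rose and 38.0% fell. Their median difference was -0.33, beside -0.17 over all genes. Relative to the CD3 genes 11 were higher and none lower, where 12101 of the 12393 genes were higher. The partner median on that scale, 1.13, lay below the 1.30 over all genes. Cyclic loess gave 3 higher and 6 lower, where 3628 of all 12393 genes were higher and 2799 lower. Irf4, the partner of Batf at composite sites, measured 7.51 in Hdac3 deleted and 8.83 in wild type samples and fell by 1.31. Irf8, which can take its place beside Batf and is a factor of macrophages, rose by 3.09, to 11.02 in Hdac3 deleted samples, against 7.93 in wild type. Zfpm1, the corepressor FOG-1 of GATA factors, fell by 1.55, more than Gata3, and its second probe set was at least 1.87-fold lower. Fos, a component of AP-1, rose by 1.13. Cbfb, the shared subunit of Runx1 and Runx3, was chosen after its values were seen. It measured 10.51 in Hdac3 deleted and 10.93 in wild type samples and fell by 0.41 (adjusted p = 0.00071).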

How the data were processed

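Expression was measured on 6 single-colour Affymetrix arrays, 3 Hdac3 deleted and 3 wild type, grouped by sample title. Per the labels and the series' design text, robust multiarray average (RMA) in MAYDAY 2.12 was the authors' normalization. The deposited table gives 1 log2 value per probe set and sample. RMA includes a step that brings the arrays to a common distribution, which can hide a change in RNA per cell and let large one-sided changes shift other values, although the deposited sample medians still differed by 0.16 between groups (Hdac3 deleted minus wild type). The number of arrays limits the precision.

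The table held 22690 probe sets, of which 64 Affymetrix controls were left out. The platform annotation names 1 symbol for 20380 of the remainder, several for 691 and none for 1555. Differences (Hdac3 deleted minus wild type, two-sided) were tested with limma 3.58.1 (lmFit, eBayes) in R 4.3.3 over 22626 probe sets with Benjamini-Hochberg adjustment, and "rose" and "fell" mean adjusted p under 0.05. The study's threshold adds a 2-fold difference. List genes are read from the probe set with the highest mean. List counts are to be read beside the share over all 12393 genes read in this way, of which 22.0% rose and 38.0% fell. Other steps used Python 3.11.15, pandas 2.3.3, scipy 1.17.1 and matplotlib 3.10.9. "At least" folds are measured from the top of the background range.

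The members, lists, motifs and pairs were chosen with earlier results of these data known. Named genes are all members, Hdac3, the CD3 genes and up to 4 genes per list with the smallest p. Cell type markers named beside a result were picked after their values were seen, and other exceptions are marked. On simulated arrays with the spreads of this comparison, over 22626 probe sets, the fit recovered 50%, 82%, 100% and 100% of changes of 0.5, 1, 2 and 4 log2, with 5 false calls among 22426 unchanged probe sets. Far fewer probe sets were changed there than the 57.6% that passed in the data. The adjustment depends on that share, so these rates need not carry over. Same-numbered samples did not deviate together, and the labels give no batch. No sample pair was identical. Alternatives were the methods' t-test, the replicate number as a block, other scalings, filters, priors and weights, other fold thresholds and leaving out each sample.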

Additional observations from a re-analysis of the deposited data

How the results depend on the processing

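The count past adjusted p 0.05 and 2-fold, 1 higher and 0 lower, rests on genes close to the fold threshold. Of the 16, with the share of all probe sets in brackets, the number higher was 2 with cyclic loess (9.46%), 11 relative to the CD3 genes (80.7%), 3 with a 1.5-fold threshold (12.3%) and 5 with no fold threshold (20.1%). The number lower was 2 with median centring (6.73%), 1 with quantile normalization again (4.95%), 1 with array weights (4.46%), 4 with a 1.5-fold threshold (13.5%) and 6 with no fold threshold (37.4%). Leaving out each sample gave 1 to 1 higher and 0 to 1 lower. Without Hdac3 deleted replicate 2 the 1 lower (4.53%) was the brighter Bcl6 set at -1.04. The scale relative to the CD3 genes turned 8 differences, those of Gata3 (0.52), Bcl6 (0.51 and 0.66), Batf (0.93), Runx1 (1.18, 0.83 and 1.30) and Runx3 (1.41). Of these, Gata3, Bcl6, Batf and 2 Runx1 sets had passed as lower. The other turns were in values that had not passed. Median centring gave -0.13 for Rora 1424035_at, -0.07 for Maf and -0.02 for Runx1 1427650_a_at, quantile normalization again gave -0.0027 for Maf, and cyclic loess gave 0.01 for Runx1 1452530_a_at and 0.12 for Runx3. Leaving out single samples moved Rora 1424035_at between -0.06 and 0.14 and Runx3 between -0.16 and 0.01. Tbx21 stayed between 1.10 and 1.28, Gata3 between -0.96 and -0.92 and Prdm1 between 0.86 and 0.97 when each sample was left out. With the replicate block, which the deviations of same-numbered samples do not bear out (correlations 0.092, 0.084 and -0.19), the counts were 1 higher and 0 lower, and all 16 differences kept their call. Bcl6 1450381_a_at, Rora 1424035_at and Maf lie near or within background, which limits what they can show. The cause of each change with scaling was not tested. Over the 16 differences and all alternatives, 216 values kept direction and call, 10 lost the call, 8 gained one and 17 turned.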
